A study of Homo sapiens with 18 samples.

Results

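The genes described here act between the end of DNA replication and the separation of daughter cells: cyclins, kinases, spindle checkpoint and kinetochore proteins, spindle motors and cytokinesis factors. The list named 45 genes, and its members were the transcript clusters of the array (the probe sets summarised as 1 value for a gene) whose every symbol was on that list. The rule found 45 clusters of 44 genes among 21214 clusters with a gene symbol, in a table of 33297 clusters. BIRC5 had 2 clusters. The only cluster for CENPA also carried another symbol, so it was no member.

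RNA of HEK293 cells, a human embryonic kidney line immortalised with adenovirus DNA, was measured on 18 single-colour expression arrays. The cells were transiently transfected with an expression vector for RHOXF1, one for RHOXF2, or a control vector, where RHOXF1 and RHOXF2 are homeobox transcription factors of the X-linked reproductive homeobox cluster. The labels name pCMV6-AC-GFP among the plasmids. All groups, control included, received DNA with Lipofectamine 2000, and the share of cells that took it up is not given in the sources used here.

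The 6 groups were RHOXF1 cells, RHOXF2 cells and control cells at 48 h after transfection, and the same at 24 h, with 3 arrays each. The arrays of a group are called biological triplicates, with no more said of separate cultures, so p-values measure the spread between these arrays. Values are log2 expression, and the number of arrays limits the precision. All cells of a well were measured together, so fewer cells in G2 or mitosis and less RNA per such cell cannot be told apart.

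Mitotic entry is driven by cyclin-dependent kinase CDK1 bound to cyclin A and then cyclin B. The spindle checkpoint holds the anaphase-promoting complex (APC/C), a ubiquitin ligase, inactive through its activator CDC20 until chromosomes are attached, after which cyclins are degraded and the cell divides. Many of these genes are repressed by the DREAM complex early in the cell cycle and transcribed in G2 by MYB-MuvB with FOXM1. These complexes act through promoter elements called the cell cycle genes homology region (CHR), and NF-Y binds CCAAT boxes.

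Promoter sequences of 6 members are shown because these members carry the changes described next or serve as contrasts to them. They are the 150 bases before the annotated start, 5′ to 3′ on the gene's strand, from RefSeq, build GRCh38.p14. Where a gene had several annotated starts, as ECT2 did, the most upstream was used. Capitals mark a CHR (TTTGAA or TTCGAA) or a CCAAT box, each searched on both strands, so that TTCAAA and ATTGG are capitalised too. BUB1, CCNB1, CDC20 and ECT2 fell the most by 48 h among the members, CCNB2 is the close relative of CCNB1 that did not pass the test, and NUSAP1 is the member that rose. BUB1 lies at chr2:110678064-110678213 on the minus strand. CCNB1 lies at chr5:69167000-69167149, CDC20 at chr1:43358831-43358980 and ECT2 at chr3:172750576-172750725, all on the plus strand. CCNB2 lies at chr15:59104996-59105145 and NUSAP1 at chr15:41332731-41332880, also on the plus strand.
BUB1: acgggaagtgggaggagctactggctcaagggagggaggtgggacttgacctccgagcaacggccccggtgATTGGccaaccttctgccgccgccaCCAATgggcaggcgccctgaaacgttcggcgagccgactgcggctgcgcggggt
CCNB1: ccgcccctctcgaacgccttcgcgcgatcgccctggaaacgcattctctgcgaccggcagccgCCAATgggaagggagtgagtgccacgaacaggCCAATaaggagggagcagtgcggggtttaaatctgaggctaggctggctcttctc
CDC20: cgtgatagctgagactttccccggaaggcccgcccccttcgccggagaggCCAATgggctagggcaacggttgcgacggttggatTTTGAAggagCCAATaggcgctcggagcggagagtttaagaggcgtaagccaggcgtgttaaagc
ECT2: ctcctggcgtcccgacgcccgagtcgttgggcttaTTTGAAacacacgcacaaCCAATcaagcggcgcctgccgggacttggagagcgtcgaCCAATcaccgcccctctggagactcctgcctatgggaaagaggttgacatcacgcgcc
CCNB2: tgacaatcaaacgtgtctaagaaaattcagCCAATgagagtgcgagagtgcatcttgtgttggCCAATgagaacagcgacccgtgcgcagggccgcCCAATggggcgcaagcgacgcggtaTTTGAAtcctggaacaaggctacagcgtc
NUSAP1: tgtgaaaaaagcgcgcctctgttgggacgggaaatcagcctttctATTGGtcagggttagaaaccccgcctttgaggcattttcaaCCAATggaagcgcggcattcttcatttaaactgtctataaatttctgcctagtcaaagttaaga

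All 6 windows held at least 2 CCAAT boxes, in either orientation. The promoter of the other annotated start of ECT2, which is not shown, held 0 CCAAT boxes, and its CHRs lay at -242 and -182. A CHR lay within the bases shown of CDC20, ECT2 and CCNB2. Those of BUB1 and NUSAP1 began at bases 2 and 14, with the start itself counted as the first base. CCNB1 had neither TTTGAA nor TTCGAA on either strand in the 300 bases searched, and no other form of a CHR was searched. The search ran from 250 bases before to 50 bases after the start. Of the 45 genes, 39 matched a promoter entry, with 51 promoters between them. A CHR was present in 34 of the 51 (66.7%) and in 16.4% of all 35116 promoters of that length, and a CCAAT box in 38 of 51 (74.5%), against 34.6% of all. Both were found in 28 of the 51 (54.9%) and in 6.38% of all. The 51 include the promoter of CENPA, which was listed but was no member. Among the members that fell with time, 12 of 20 promoters (60.0%), from 18 genes, held both. AURKA and TTK also fell but had no promoter entry. Among the other listed genes, 16 of 31 promoters (51.6%), from 21 genes, held both. A gene with several annotated starts counts more than once. These are letter matches only, and no overlap between motifs was removed.

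Before the comparisons, the labels were checked against the transfected genes. RHOXF1 averaged 12.27 in RHOXF1 cells at 48 h, against 6.13 in control cells, and 12.25 at 24 h, against 6.34. In RHOXF2 cells RHOXF1 averaged 7.97 at 48 h and 7.48 at 24 h, above the control cells, and read 9.12 in RHOXF2 replicate 3 at 48 h. The cluster shared by RHOXF2 and RHOXF2B averaged 12.92 in RHOXF2 cells at 48 h, against 6.62 in control cells, and 12.83 at 24 h, against 6.81. Markers of blood, endothelial, fibroblast, liver and heart cells (7 genes on 8 clusters) had a mean level of 4.91 to 5.09 over the arrays at 48 h and 4.89 to 5.11 at 24 h. None of the 8 passed the test with time over the vectors, and in control cells 1, CD14, a monocyte gene, fell by 0.46 on the log2 scale (limma adjusted p = 0.0122). The fibroblast gene COL1A1 read 7.66 to 8.10, with a mean at percentile 56.4 of the named clusters, and PTPRC, the leukocyte gene CD45, read 3.41 to 3.80. VIM, a filament gene expressed in HEK293 cells, read 11.15 to 11.94, whereas PAX2, a kidney lineage gene, read 6.40 to 6.86. Array numbers in the descriptions run in a block of their own for each time, so array order and time cannot be told apart. RHOXF2 replicate 3 at 48 h was the array furthest from its group for several members, and its effect is given where it matters. Control replicate 3 at 48 h was the lowest of the 18 arrays for several members, among them CDC20 (10.66), BUB1 (10.15), CCNB1 (9.74) and PLK1 (11.64). Differences from control at 48 h depend on both of these arrays.

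By 48 h, 20 of the 45 clusters had fallen relative to 24 h, averaged over the 3 vectors, and 1 had risen (limma adjusted p under 0.05). Of all clusters tested, 13.3% fell and 16.3% rose in this comparison. BUB1, CCNB1, CDC20 and ECT2 fell the most, by 1.29-fold to 1.33-fold, so that each change was small. The median log2 difference of the members was -0.13, beside -0.01 over all clusters tested. In all, 33 clusters were negative and 12 positive. Of 10 clusters of HEK293 markers, 5 rose and 0 fell in the same comparison, and the part of that shift in the members' change was not tested. With each array's median subtracted, 28 members fell and 0 rose, beside 28.9% of all clusters that fell. The array medians over the named clusters were 7.48 to 7.52 at 48 h, against 7.42 to 7.44 at 24 h.

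**Figure D1:**
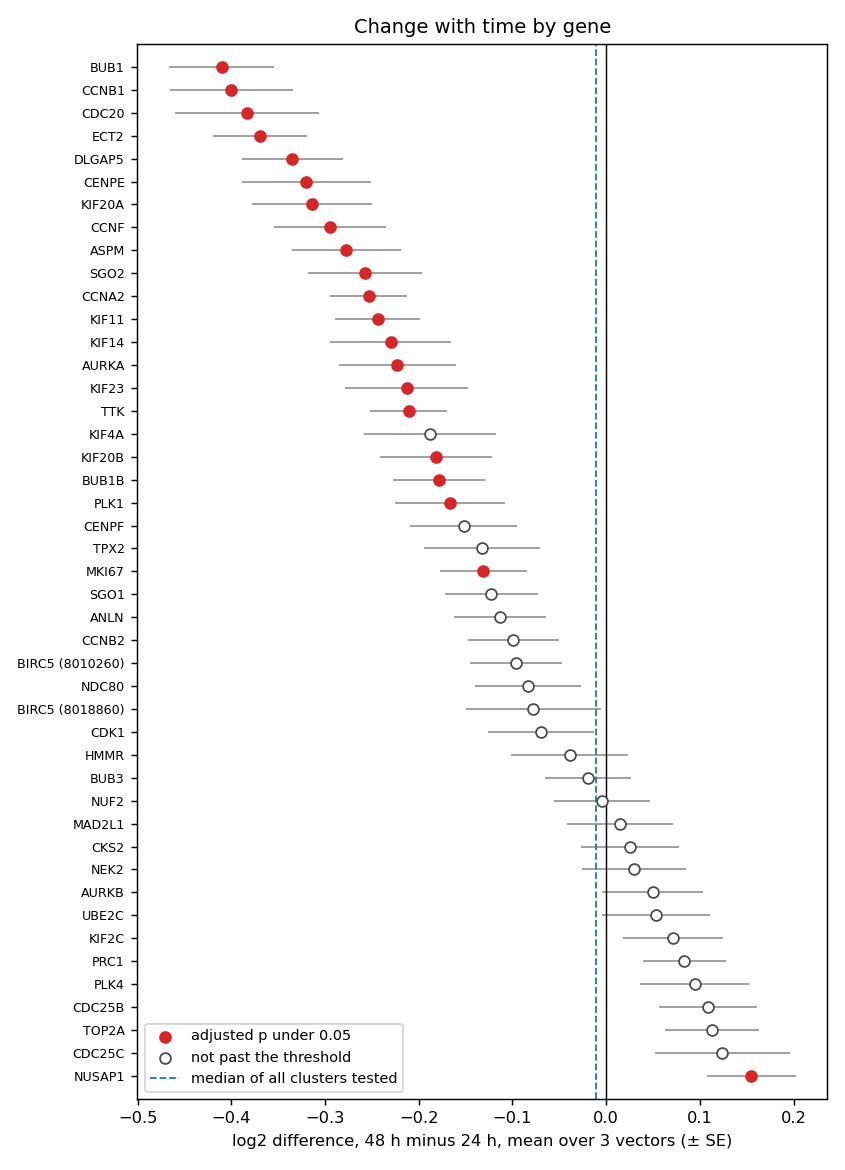
Log2 difference at 48 h minus 24 h, averaged over 3 vectors, for each of the 45 clusters on the vertical axis, with bars of ± SE. Filled points passed an adjusted p of 0.05, and the dashed line is the median of all 21214 clusters tested; 20 filled points lie left of 0 and 1, NUSAP1, lies right of it.

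BUB1, a checkpoint kinase that recruits other checkpoint proteins to kinetochores, fell the most. At 48 h it read 10.27, 10.31 and 10.18 in RHOXF1 cells, 10.25, 10.32 and 10.65 in RHOXF2 cells and 10.45, 10.31 and 10.15 in control cells. At 24 h it read 10.75, 10.67 and 10.68 in RHOXF1 cells, 10.84, 10.73 and 10.67 in RHOXF2 cells and 10.77, 10.71 and 10.78 in control cells. All 9 arrays at 48 h lay below all 9 at 24 h, although RHOXF2 replicate 3 at 48 h came close. The log2 difference was -0.41 ± 0.06 (SE; limma adjusted p = 4.14e-05), a 1.33-fold fall.

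ECT2, the exchange factor that activates RhoA for the cleavage furrow, had the smallest p. It read 9.54, 9.70 and 9.50 in RHOXF1 cells at 48 h, 9.60, 9.62 and 9.67 in RHOXF2 cells and 9.61, 9.39 and 9.41 in control cells. The values at 24 h were 9.98, 9.86 and 10.04 in RHOXF1 cells, 9.96, 9.98 and 9.94 in RHOXF2 cells and 9.72, 9.90 and 9.99 in control cells. Again no array at 48 h reached the lowest at 24 h, which was control replicate 1. The difference was -0.37 ± 0.05 (limma adjusted p = 3.81e-05), 1.29-fold lower. CCNA2 and TTK were the other members whose arrays did not overlap between the times. In all, 4 of 45 clusters were lower without overlap and 0 higher, beside 0.853% and 2.87% of all clusters.

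Among the cyclins with CDK1 and its cofactor CKS2, 3 of 6 fell. CCNB1, cyclin B1, had a lowest, median and highest value of 9.74, 9.99 and 10.31 at 48 h, against 10.08, 10.43 and 10.53 at 24 h, a fall of 1.32-fold (log2 -0.40 ± 0.07; limma adjusted p = 0.000202). RHOXF2 replicate 3 was the highest array at 48 h, and the other 8 lay below the range at 24 h. CCNA2, cyclin A2, fell by 1.19-fold (log2 -0.25 ± 0.04; limma adjusted p = 0.000186). CCNF, the F-box cyclin of an SCF ubiquitin ligase, fell by 1.23-fold (log2 -0.29 ± 0.06; limma adjusted p = 0.0011). The partner kinase CDK1 did not pass, with 9.18, 9.39 and 9.61 at 48 h against 9.38, 9.42 and 9.59 at 24 h and a difference of -0.07 (adjusted p = 0.383). Neither did CCNB2, cyclin B2, at -0.10 (0.133), or CKS2 at 0.03 (0.751). The phosphatases CDC25B and CDC25C, which activate CDK1, read 0.11 and 0.12 higher at 48 h, with adjusted p of 0.127 and 0.206.

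**Figure D2:**
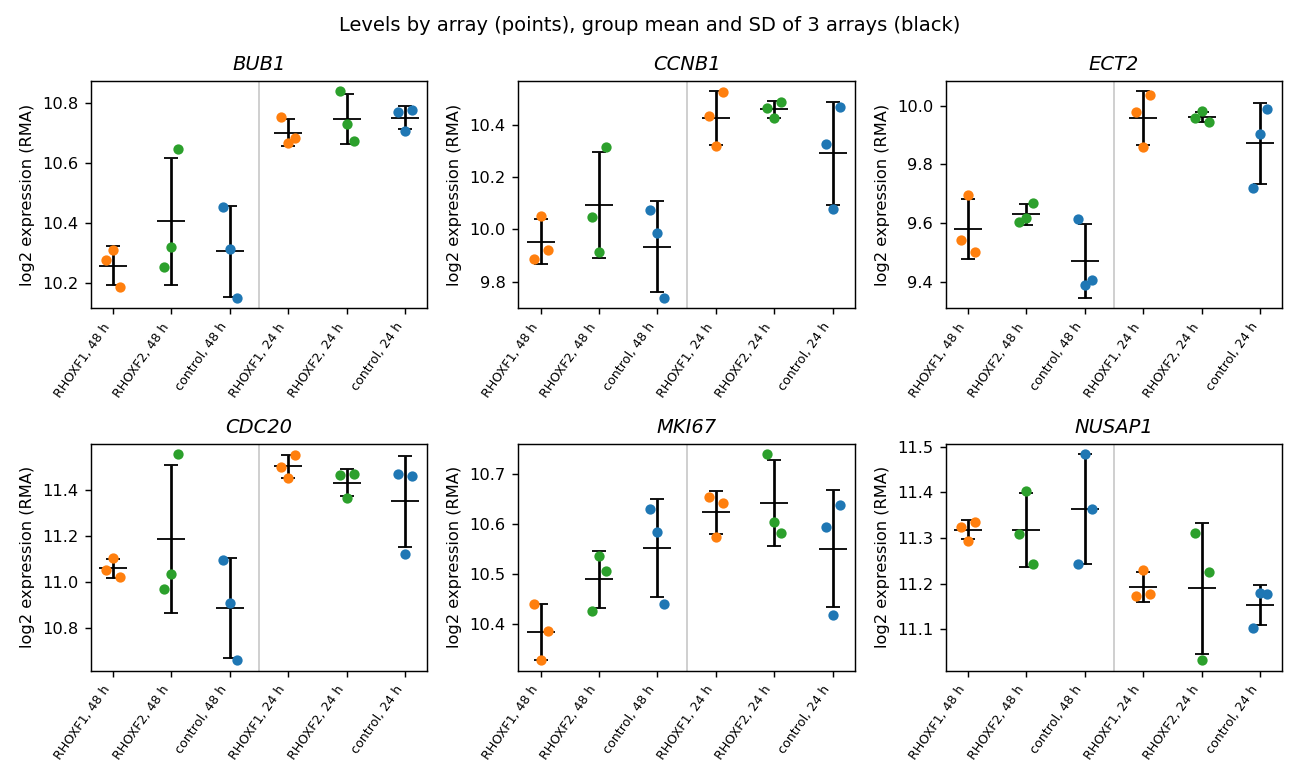
Log2 RMA expression by array (points) in the 6 groups on the horizontal axis for BUB1, CCNB1, ECT2, CDC20, MKI67 and NUSAP1, with the mean and SD of 3 arrays in black. BUB1 and ECT2 do not overlap between the times, NUSAP1 is higher at 48 h, and RHOXF2 replicate 3 at 48 h is the highest array of its time for BUB1, CCNB1 and CDC20.

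Of the 6 mitotic kinases, 3 fell. TTK, the MPS1 kinase that starts checkpoint signalling, fell by 1.16-fold (log2 -0.21 ± 0.04; limma adjusted p = 0.000834). AURKA, the centrosome and spindle pole kinase, fell by 0.22 on the log2 scale, and PLK1, the polo kinase, fell by 0.17. PLK1 spanned 11.64 to 12.19 at 48 h and 11.92 to 12.21 at 24 h, so its arrays overlapped widely. AURKB, the centromere kinase, NEK2, a centrosome kinase, and PLK4, which starts centriole duplication, differed by 0.05, 0.03 and 0.09 and did not pass. The 2 clusters of BIRC5, survivin, the partner of Aurora B, differed by -0.10 and -0.08 and did not pass either. The latter cluster was dim, with a mean of 5.73 (percentile 25.1 of the named clusters) against 9.40 (79.5) for the former.

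In the checkpoint and APC/C group, 3 of 6 fell. CDC20 read 11.05, 11.10 and 11.02 in RHOXF1 cells at 48 h, 10.97, 11.03 and 11.55 in RHOXF2 cells and 11.09, 10.91 and 10.66 in control cells. At 24 h it read 11.50, 11.45 and 11.55 in RHOXF1 cells, 11.46, 11.36 and 11.47 in RHOXF2 cells and 11.47, 11.12 and 11.46 in control cells. RHOXF2 replicate 3 at 48 h was as high as the arrays at 24 h, and the other 8 arrays at 48 h were lower than every array at 24 h. The fall was 1.30-fold (log2 -0.38 ± 0.08; limma adjusted p = 0.00109). BUB1B, the checkpoint protein BUBR1, fell by 0.18. BUB3 and MAD2L1, which form the checkpoint complex with it, and UBE2C, the ubiquitin-conjugating enzyme of the APC/C, differed by -0.02, 0.01 and 0.05 and did not pass.

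Of the 6 centromere and kinetochore clusters, CENPE and SGO2 fell. CENPE, the motor that brings chromosomes to the spindle equator, read 8.83 to 9.29 at 48 h, against 9.13 to 9.62 at 24 h, a 1.25-fold fall (log2 -0.32 ± 0.07; limma adjusted p = 0.00178). SGO2, a shugoshin that protects centromeric cohesin, fell by 0.26. CENPF, a kinetochore protein of late G2, and SGO1 lay just outside at -0.15 (adjusted p = 0.0507) and -0.12 (0.0711). NDC80 and NUF2, which form the microtubule-binding NDC80 complex, were at -0.08 (0.282) and -0.00466 (0.957).

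Kinesin motors had the largest share of calls among the groups of over 2 clusters, with 5 of 7 lower and none higher. KIF20A, a motor of the anaphase midzone, read 10.20, 10.45 and 10.76 (lowest, median and highest) at 48 h, against 10.61, 10.76 and 10.92 at 24 h. It fell by 1.24-fold (log2 -0.31 ± 0.06; limma adjusted p = 0.00126), with some overlap between the times. KIF11, the Eg5 motor that separates spindle poles, fell by 1.18-fold (log2 -0.24 ± 0.05; limma adjusted p = 0.000559). KIF14, KIF23 and KIF20B, each needed for cytokinesis, fell by 0.23, 0.21 and 0.18. KIF4A, a chromosome and midzone motor, was just outside at -0.19 (adjusted p = 0.0518), and KIF2C, a microtubule depolymerase, was at 0.07 (0.334).

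Spindle assembly proteins split in direction. DLGAP5, which stabilises kinetochore fibres, read 9.71, 9.87 and 10.04 at 48 h, against 10.00, 10.25 and 10.32 at 24 h, a 1.26-fold fall (log2 -0.33 ± 0.05; limma adjusted p = 0.000168). ASPM, a spindle pole protein, fell by 0.28. NUSAP1, which bundles spindle microtubules, rose. It read 11.32, 11.29 and 11.34 in RHOXF1 cells at 48 h, 11.31, 11.40 and 11.24 in RHOXF2 cells and 11.24, 11.48 and 11.36 in control cells. At 24 h it read 11.17, 11.23 and 11.18 in RHOXF1 cells, 11.31, 11.03 and 11.23 in RHOXF2 cells and 11.10, 11.18 and 11.18 in control cells. The groups did not overlap in RHOXF1 or control cells but did in RHOXF2 cells, and the difference was 0.15 ± 0.05 (limma adjusted p = 0.0194). That call ended with each array's median subtracted (0.09; adjusted p = 0.137, in a range of 0.00421 to 0.137 over the alternatives). PRC1, TPX2 and HMMR, also spindle proteins, were at 0.08, -0.13 and -0.04 and did not pass.

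ANLN, anillin, the scaffold of the contractile ring, was at -0.11 (adjusted p = 0.0881). Of the pair TOP2A and MKI67, the topoisomerase that untangles sister chromatids was at 0.11 (0.101), and MKI67, the Ki-67 marker of cycling cells, fell by 0.13. MKI67 averaged lower at 48 h in RHOXF1 and RHOXF2 cells, and its difference in control cells was near 0. It was the exception among the 20 members that fell: the other 19 were negative in all 3 vectors. Over all members, 26 clusters were negative in all 3 vectors, 7 positive in all and 12 mixed, and 29.3% of all clusters were negative in all.

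**Figure D3:**
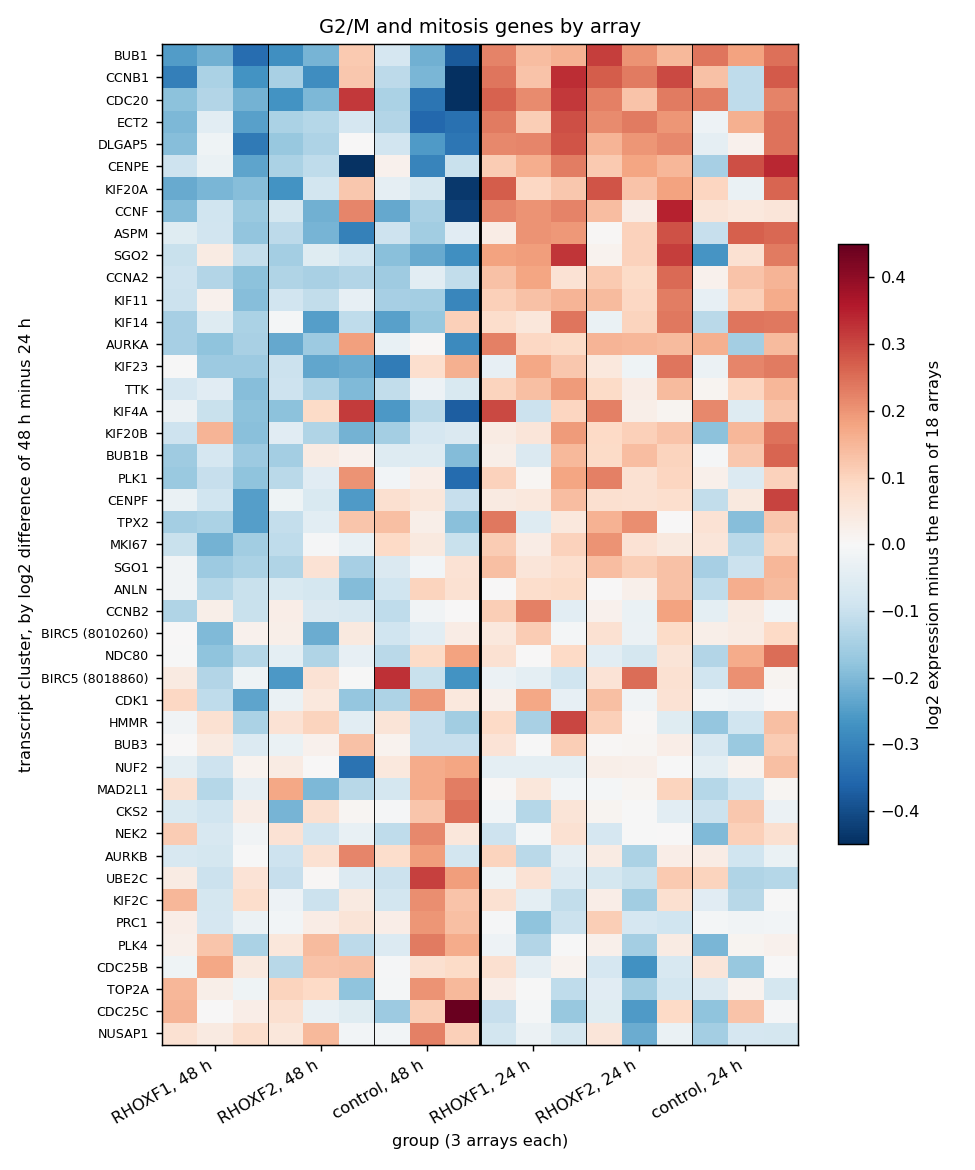
Log2 expression minus the mean of 18 arrays for the 45 clusters (vertical axis, ordered by the log2 difference of 48 h minus 24 h) on each array (horizontal axis, 6 groups of 3). Colours stop at the ends of the scale. The 48 h arrays are on the left and the 24 h arrays on the right, and most clusters that fell are lower on the left in every group.

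Of the 20 falls, those of MKI67 (limma adjusted p = 0.0392), PLK1 (0.0397), KIF20B (0.0273) and KIF23 (0.0203) were close to the threshold and were lost under some settings. Leaving out 1 array at a time ended the call of PLK1 for 10 of the 18 arrays, of MKI67 for 9 and of KIF20B for 5, with values of -0.23 to -0.11, -0.20 to -0.09 and -0.25 to -0.15 over all alternatives. For PLK1 these were RHOXF1 replicates 1 and 3, RHOXF2 replicates 1 and 2 and control replicate 3 at 48 h, and RHOXF1 replicates 1 and 3, RHOXF2 replicate 1 and control replicates 1 and 3 at 24 h. For MKI67 they were RHOXF1 replicates 2 and 3, RHOXF2 replicate 1 and control replicate 3 at 48 h, and the same 5 arrays at 24 h as for PLK1. For KIF20B they were RHOXF1 replicates 1 and 3 at 48 h, and RHOXF1 replicate 3 and control replicates 2 and 3 at 24 h. Across the alternatives the adjusted p spanned 0.00554 to 0.152 for PLK1, 0.00315 to 0.136 for MKI67, 0.00336 to 0.0637 for KIF20B and 0.00319 to 0.057 for KIF23. The other 16 falls kept their calls under every alternative run.

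Within single vectors the time comparison had fewer arrays. RHOXF1 cells had 6 members lower and 0 higher at 48 h, beside 1.35% of all clusters lower and 3.06% higher. Control cells had 7 lower and 0 higher, beside 7.89% lower and 9.89% higher. RHOXF2 cells had 0 members past the threshold, beside 0.259% of all clusters lower and 0.985% higher, and 14 members had an unadjusted p under 0.05, beside 16.7% of all clusters. Such a p was reached by 19 members in RHOXF1 cells, beside 20.2%, and by 16 in control cells, beside 33.5%. In RHOXF1 cells the 6 were BUB1 (-0.44; limma adjusted p = 0.0179), DLGAP5 (-0.42), ECT2 (-0.38), CCNB1 (-0.47), CCNA2 (-0.26) and CCNF (-0.37). In control cells they were ECT2 (-0.40; limma adjusted p = 0.00501), BUB1 (-0.45), KIF11 (-0.28), CDC20 (-0.46), DLGAP5 (-0.30), CCNB1 (-0.36) and CCNF (-0.32). Members whose 3 arrays at 48 h all lay below the 3 at 24 h numbered 23 in RHOXF1 cells, 18 in RHOXF2 cells and 12 in control cells, beside 14.7%, 8.11% and 15.7% of all clusters. Those whose arrays all lay above numbered 2, 0 and 2, beside 15.1%, 12% and 14.7%. The nearest to the threshold in RHOXF2 cells were CCNA2 at -0.29 (adjusted p = 0.0511), ECT2 at -0.33 (0.061) and BUB1 at -0.34 (0.0824).

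Single arrays decided these counts. In RHOXF1 cells the count of 6 became 0 without RHOXF1 24 h replicate 3, 48 h replicate 1 or 48 h replicate 3, and 2 or 1 without 24 h replicate 1 or 2. In control cells the count of 7 became 2 without 24 h or 48 h replicate 3, 4 without 24 h or 48 h replicate 2, and 11 without 24 h replicate 1. In RHOXF2 cells it became 3 without 48 h replicate 3. Whether the change with time differed between vectors was tested as an interaction, with 0 members called for RHOXF1 (0% of all clusters) or for RHOXF2 (0.0141%). For RHOXF1 the smallest p was that of MKI67, at -0.24 (95% interval -0.48 to -0.00314; limma adjusted p = 0.95), and for RHOXF2 that of KIF4A, at 0.33 (-0.03 to 0.69; adjusted p = 0.581). The 95% intervals of the interaction extended a median of 0.290 to either side. Members with a positive interaction numbered 9 for RHOXF1 and 14 for RHOXF2, beside 52.2% and 55.7% of all clusters, and these signs were not tested.

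The transfected genes were compared with control at each time. None of the 45 clusters passed in RHOXF1 or RHOXF2 cells at either time, and the comparisons share control arrays. Positive differences from control numbered 13 at 48 h and 33 at 24 h in RHOXF1 cells, beside 52.6% and 50.1% of all clusters. In RHOXF2 cells they numbered 17 and 27, beside 53.9% and 48.8%. Whether these signs depart from the shares over all clusters was not tested. RHOXF1 against control called 0 members at 48 h, beside 0.00943% of all clusters, and 0 at 24 h, beside 0.00471%. RHOXF2 against control called 0 at 48 h, beside 0.0943%, and 0 at 24 h, beside 0.00943%. Unadjusted p under 0.05 was reached by 4 members in RHOXF2 cells at 48 h, beside 12.2% of all clusters. It was reached by 0 members in RHOXF1 cells at 48 h, beside 7.22%, and at 24 h by 0 in RHOXF1 cells, beside 4.76%, and 0 in RHOXF2 cells, beside 7.99%. The 95% intervals extended a median of 0.205 to either side on the log2 scale, and over the members and the comparisons at 48 h they ran from -0.41 to 0.58.

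**Figure D4:**
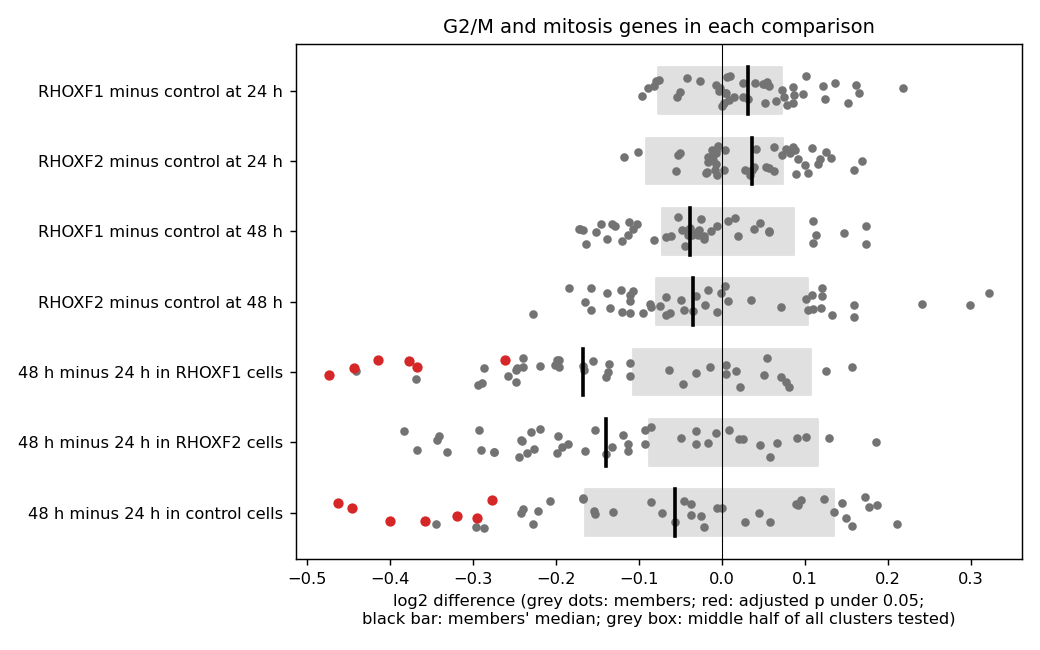
Log2 differences of the 45 clusters (grey dots; red where the adjusted p is under 0.05) for 7 comparisons on the vertical axis, with the members' median as a black bar and the interquartile range of all clusters tested as a grey box. The 4 comparisons with control have no red dot, whereas 48 h minus 24 h has 6 in RHOXF1 cells, 0 in RHOXF2 cells and 7 in control cells.

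KIF4A had the smallest p against control in RHOXF2 cells at 48 h. It read 8.49, 8.76 and 8.99 in those cells, against 8.41, 8.55 and 8.30 in control cells, and the first of its arrays lay within the control range and the other two above it. The difference was 0.32 ± 0.12 (95% interval 0.07 to 0.58; limma adjusted p = 0.305), and without RHOXF2 replicate 3 at 48 h it was 0.20 (adjusted p = 0.988). NUF2 read 9.43, 9.39 and 9.06 in RHOXF2 cells, against 9.44, 9.56 and 9.57 in control cells, a difference of -0.23 ± 0.09 (adjusted p = 0.313) that was -0.11 without that array. The groups did not overlap for NUF2. CCNF was at 0.24 ± 0.10 (adjusted p = 0.354) and at 0.12 without that array, and CDC20 at 0.30 (0.373) and at 0.11 without it. Control replicate 3 at 48 h was the lowest of all arrays for KIF4A, CCNF and CDC20. Over all alternatives, which include leaving out that control array, KIF4A ran from 0.20 to 0.45 and CCNF from 0.12 to 0.34. KIF11 and SGO2 were higher without overlap in RHOXF2 cells, so that 2 members were higher and 1 lower, beside 6.59% and 5.24% of all clusters.

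In RHOXF1 cells at 48 h, MKI67 read 10.44, 10.33 and 10.38, against 10.63, 10.58 and 10.44 in control cells. These arrays did not overlap, by a margin smaller than the rounding, and the difference was -0.17 (95% interval -0.34 to 0.000114; limma adjusted p = 0.689). NUF2 read 9.35, 9.30 and 9.41, against 9.44, 9.56 and 9.57 in control cells, a difference of -0.17 (0.724), and PRC1 was at -0.15 (0.728). NUF2, MKI67 and PRC1 were lower without overlap and SGO2 higher, beside 5.39% and 7.17% of all clusters. The margin of PRC1 was also very small, with 11.2204 in RHOXF1 replicate 1 against 11.2208 in control replicate 1. At 24 h the smallest p against control were those of SGO2 at 0.22 (adjusted p = 0.961), DLGAP5 at 0.17 and CCNF at 0.16 in RHOXF1 cells, and of SGO1 at 0.16 (0.694), CCNB1 at 0.17 (0.771) and DLGAP5 at 0.12 (0.816) in RHOXF2 cells. Without overlap at 24 h, CCNF was higher in RHOXF1 cells and 0 members were lower, beside 4.6% and 4.93% of all clusters, and 0 were higher or lower in RHOXF2 cells, beside 3.89% and 7.18%. RHOXF1 against RHOXF2 called 0 members at 48 h, beside 0.0519% of all clusters, and 0 at 24 h, beside 0.0141%, with TPX2 at -0.17 (0.998) and CDC25B at 0.16 having the smallest p.

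Averaged over the members, the log2 deviation from the 18-array mean was -0.06, -0.07 and -0.12 in RHOXF1 cells at 48 h, -0.08, -0.06 and -0.03 in RHOXF2 cells and -0.07, -0.01 and -0.07 in control cells. At 24 h it was 0.09, 0.05 and 0.09 in RHOXF1 cells, 0.08, 0.03 and 0.11 in RHOXF2 cells and -0.03, 0.03 and 0.12 in control cells. Control replicate 1 at 24 h was the one array of its time below 0, and the other 8 lay above all arrays at 48 h. A list of G1/S genes, 35 of 36 of them measured, ran from -0.08 to 0.07 at 48 h and from -0.05 to 0.11 at 24 h, so its arrays overlapped more.

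**Figure D5:**
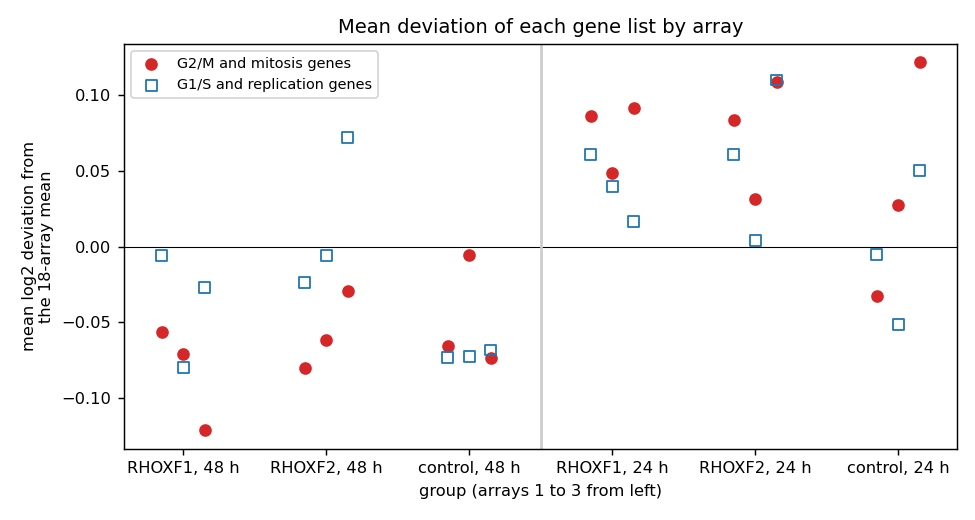
Mean log2 deviation from the 18-array mean for the G2/M and mitosis genes (filled points) and for the G1/S genes (open squares) on each array, by group. The members lie between -0.12 and -0.01 at 48 h and between -0.03 and 0.12 at 24 h.

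Other genes of the pathway were counted in the comparison of 48 h with 24 h over the vectors, beside 13.3% of all clusters lower and 16.3% higher. Of 14 clusters of transcription regulators, 2 fell and 1 rose. E2F4, a subunit of DREAM, was at -0.38 and FOXM1 at -0.20, and RBL2, the pocket protein of DREAM, was at 0.34. Of 22 mitotic entry clusters, 4 fell and 4 rose, with GTSE1, a microtubule-binding protein of G2 (-0.34), and ENSA, an inhibitor of the phosphatase PP2A (-0.21), lower, and MASTL, the Greatwall kinase that activates ENSA (0.24), higher. Among 21 APC/C clusters 5 fell and 2 rose, ANAPC7 (-0.38), ANAPC1 (-0.25) and ANAPC4 (-0.20) among those that fell.

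Cohesin and condensin genes had 6 of 19 clusters lower and 0 higher, among them the cohesin subunit STAG1 (-0.54) and the condensin subunits NCAPH (-0.20) and NCAPG (-0.22). Of 30 other kinetochore clusters, 9 fell and 3 rose, with CENPI (-0.43), ZW10 (-0.47) and SKA3 (-0.30) lower. Among 33 other spindle and nuclear envelope clusters 14 fell and 2 rose, with LMNB1 (-0.32), DEPDC1 (-0.28) and TMPO (-0.24) lower. For the G1/S genes, 10 of 37 clusters fell and 4 rose, CLSPN, a replication checkpoint mediator (-0.72 and -0.40 on its 2 clusters), and CCNE2, cyclin E2 (-0.32), among those that fell. None of these lists had a call in a comparison between vectors or in an interaction. In RHOXF2 cells at 48 h, the smallest p of these lists were CLSPN at 0.49 (adjusted p = 0.133) and E2F4 at 0.48 (0.181), followed by E2F2 at 0.27 (0.213), CCNE2 at 0.35 (0.213) and KNTC1 at -0.41 (0.216).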

How the data were processed

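The deposited values are log2 expression values that the authors made by RMA in Affymetrix Expression Console 3.1, per the submitters' processing notes and the labels, a method that corrects background, applies quantile normalization and gives 1 value for each transcript cluster. Array descriptions give the type as Human Gene 1.0 ST, and the series text as an exon array. The genome build of the array annotation is not given in the sources used here. Gene symbols came from the platform's probe table, and promoters from RefSeq (GRCh38.p14).

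For the 21214 clusters with a symbol, a linear model (lmFit and eBayes of limma 3.58.1, under R 4.3.3) had 1 mean per group over all 18 arrays, 12 residual degrees of freedom and no filter on dim clusters. The 12 comparisons were two-sided, with Benjamini-Hochberg adjustment over all clusters of each comparison at 0.05. The scripts were tested on simulated data. Members and gene lists were chosen with earlier results of these data known, so patterns already seen are no independent evidence.

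Members were named where called (up to 10 in each direction by p), filled to 3 by the smallest p, and from each other list up to 3 with the smallest p. Other members are given by role, chosen after their values were seen. A gene with several clusters is named by the brightest. Alternatives were 3 array scalings, clusters above the median level, all clusters, a trended and robust variance, only the compared groups, the replicate block and leaving out each array.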

Additional observations from a re-analysis of the deposited data

How the results depend on the processing

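The comparisons between vectors and the differences of effects had 0 members called in all 124 alternative fits. For 48 h against 24 h over the vectors, the 21 calls became 18 to 23 on leaving out single arrays and 20 to 28 under the other alternatives, and the fit to the compared groups was not run because this comparison uses all of them. In RHOXF1 cells the 6 calls became 11 with array medians subtracted, 3 with all clusters tested, and 0 to 4 on leaving out single arrays. In RHOXF2 cells the 0 calls became 2 with array medians subtracted, 2 among clusters above the median level, 1 with a trended and robust variance, and 0 to 3 on leaving out single arrays. In control cells the 7 calls became 15 with array medians subtracted, 1 with only the compared groups, 3 with all clusters tested, and 2 to 11 on leaving out single arrays. Causes of these shifts were not tested. KIF23 lost its call with repeated quantile normalization, MKI67 with that and with cyclic loess, and PLK1 with both and with all clusters tested. No direction reversed among the members called or with the smallest p in a comparison. Among the other members, signs did reverse in RHOXF2 cells against control at 48 h without RHOXF2 replicate 3. BUB1 went from 0.10 to -0.02, AURKA from 0.03 to -0.09 and AURKB from 0.003 to -0.07, whereas KIF20B went from -0.03 to 0.004. Same-numbered arrays deviated together (correlation over 0.1) in 8 of 9 pairs within 24 h but in 2 of 9 within 48 h and 1 of 9 across times. Within 24 h the correlations ran from 0.06 to 0.52, with the replicate 1 pairs at 0.45, 0.50 and 0.52. The main fit did not pair arrays by number, so at 24 h it left this shared deviation in the spread. With the replicate block the comparisons between vectors, those at 24 h included, still called 0 members. For the change with time, that block called 21 members over the vectors, 5 in RHOXF1 cells, 0 in RHOXF2 cells and 7 in control cells. With 3 arrays a group, small differences between vectors were not resolved.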

Other observations

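Outside the rule on symbols lay 2 clusters that members share with other genes. The cluster of CENPA and SLC35F6 differed by 0.02 ± 0.05 (SE) on the log2 scale between 48 h and 24 h over the vectors (limma adjusted p = 0.806). The cluster of KIF4A and KIF4B differed by -0.11 ± 0.09 (adjusted p = 0.402). In RHOXF2 cells at 48 h these clusters were 0.11 (adjusted p = 0.637) and 0.22 (0.626) above control cells. Of the HEK293 marker clusters, 5 of 10 rose with time over the vectors and 0 fell, beside 16.3% and 13.3% of all clusters, KRT8 by 0.68 and LHX1 by 0.35 on the log2 scale.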
